A study of Mus musculus with 3 samples.

Results

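Cells of the mouse thymus that carried transcripts of Nr4a1 together with transcripts of Bcl2l11 or Gadd45b, a pattern of strongly signalled thymocytes, were described across 3 p53 genotypes. Of 23864 filtered cells, 547 (2.29%) were members. They were chosen by their unique molecular identifiers (UMIs, 1 per captured RNA molecule): at least 1 Nr4a1 UMI, and at least 2 UMIs of Bcl2l11 and Gadd45b together. They also had at most 1 UMI of the cell cycle genes Mki67 and Top2a, 0 of Foxp3 and of Zbtb16, at most 1 of the egress genes Ccr7, Klf2, S1pr1 and Ms4a4b, and at most 5 of Cd74. The p53 AD/- library held 47 members, the p53-/- library 362 and the p53+/- library 138. Filtered cells had at least 500 genes and under 10% mitochondrial UMIs.

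Developing T cells test their receptor on peptides shown by thymic cells. A weak signal lets a thymocyte survive and mature, whereas a strong one leads to death, called negative selection, or to an agonist-selected fate such as the regulatory T cell. Nr4a1 encodes Nur77, a nuclear receptor quickly induced after receptor engagement, Bcl2l11 encodes Bim, the BH3-only protein that starts mitochondrial death of signalled thymocytes, and Gadd45b encodes a stress protein induced by NF-kappaB. Ikzf2 encodes Helios, a zinc finger factor of strongly signalled thymocytes, Nfkb1 and Rel encode NF-kappaB subunits, and Cd69 encodes an early activation antigen.

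The libraries came from the thymus of female mice, aged 4 weeks, with germline changes of Trp53, which encodes the stress-response factor p53: p53 AD/-, p53-/- and p53+/-, with 1 library of each genotype. What the AD allele changes is not written in the labels, while dimers of p53 appear in the series title. The design text names a WT group where the sample label gives p53+/-, so all libraries carried at least 1 altered allele by their labels and no wild-type library was analysed here. The strain labels give BALB/C with C57BL7 for p53 AD/-, with C57BL8 for p53-/- and with C57BL6 for p53+/-. The labels do not say how many animals gave each library, and genotype, animal, strain label and library cannot be told apart. No test was possible with 1 library per genotype, so intervals (95%) cover counting error only, within 1 library.

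Promoter windows of the 3 genes that chose the members, and of Tnfrsf9, the first gene outside the rule when ranked by the lowest of its 3 ratios of members over other thymocytes, are shown because these 4 transcripts mark the cells described. The windows run from 250 bases before to 50 bases after a transcription start (RefSeq, build GRCm38.p6), and capitals mark the motif matches found. They are chr15:101266596-101266895 for Nr4a1, chr2:128125788-128126087 for Bcl2l11, chr10:80929841-80930140 for Gadd45b and chr4:150927749-150928048 for Tnfrsf9, all on the plus strand.
Nr4a1: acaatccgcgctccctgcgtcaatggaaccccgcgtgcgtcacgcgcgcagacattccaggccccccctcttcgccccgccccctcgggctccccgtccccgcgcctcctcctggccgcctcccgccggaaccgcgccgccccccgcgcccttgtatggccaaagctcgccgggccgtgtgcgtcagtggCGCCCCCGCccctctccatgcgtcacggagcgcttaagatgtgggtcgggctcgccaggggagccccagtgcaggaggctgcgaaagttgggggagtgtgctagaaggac
Bcl2l11: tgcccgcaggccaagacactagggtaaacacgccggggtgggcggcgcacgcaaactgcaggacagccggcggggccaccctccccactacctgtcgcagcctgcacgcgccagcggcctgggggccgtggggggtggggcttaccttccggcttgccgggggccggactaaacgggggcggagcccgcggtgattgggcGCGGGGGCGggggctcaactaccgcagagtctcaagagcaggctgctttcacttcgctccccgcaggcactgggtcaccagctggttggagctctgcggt
Gadd45b: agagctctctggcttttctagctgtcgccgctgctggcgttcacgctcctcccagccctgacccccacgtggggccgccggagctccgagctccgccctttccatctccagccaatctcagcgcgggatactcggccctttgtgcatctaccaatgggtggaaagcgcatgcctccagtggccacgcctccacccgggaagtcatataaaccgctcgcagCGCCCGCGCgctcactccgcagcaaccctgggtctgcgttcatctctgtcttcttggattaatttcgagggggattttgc
Tnfrsf9: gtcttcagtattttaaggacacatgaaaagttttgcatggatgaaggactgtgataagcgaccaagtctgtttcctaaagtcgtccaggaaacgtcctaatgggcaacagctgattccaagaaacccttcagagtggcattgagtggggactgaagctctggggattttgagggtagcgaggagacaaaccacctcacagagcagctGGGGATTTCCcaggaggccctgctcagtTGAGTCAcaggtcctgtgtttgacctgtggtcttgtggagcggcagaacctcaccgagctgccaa
The capitals in the first 3 windows are matches to GCGNGGGCG, the letters bound by EGR factors, which receptor signals induce. Its first base lay at -60 from the start of Nr4a1, at -50 from that of Bcl2l11 and at -30 from that of Gadd45b. The capitals in the Tnfrsf9 window are a kappaB match (GGG, any 2 bases, then TTTCC) at -43 and an AP-1 match (TGANTCA) at -15. Both strands were searched in 24 windows of 19 genes that had one, of 23 genes looked up. Bcl2l11 and Tnfrsf9 had 2 windows each, and only the window with matches is shown for them. EGR matches stood in 3 of these windows, and in 5.55% of all 32851 windows. KappaB matches stood in Tnfrsf9 and Rel (1.63% of all windows), AP-1 matches in Tnfrsf9 and Zfp36l1 (7.81%), CRE matches (TGACGTCA) in Nfkbid and Mif (1.79%), and the NBRE letters AAAGGTCA in 0 of the 24 (1.51%). A match describes letters only, and binding was not measured.

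The libraries held 27638820 UMIs in 6308 barcodes (p53 AD/-), 54164425 in 9889 (p53-/-) and 46498800 in 8880 (p53+/-). Members together held 193168, 1528296 and 646021 UMIs in the same order, so gene values are least precise in p53 AD/-. Between 15 and 29 cell barcodes were shared by each pair of libraries, and 0, 3 and 1 members of p53 AD/-, p53-/- and p53+/- had such a barcode. Members had a median of 3677, 3455.5 and 4123.5 UMIs in that order, against 2152, 2408 and 2877.5 in other thymocytes, which are the filtered cells that passed the same exclusions without meeting the Nr4a1, Bcl2l11 and Gadd45b values. CD3 transcripts marked the members as T lineage cells: 0 of 47, 2 of 362 and 2 of 138 had no CD3 UMI.

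Members were least frequent in the p53 AD/- library, with 47 of 6171 filtered cells (0.762%, exact Clopper-Pearson interval 0.560 to 1.01). In p53-/- they were 362 of 9543 (3.79%, 3.42 to 4.20), and in p53+/- 138 of 8150 (1.69%, 1.42 to 2.0). None of the 3 intervals overlapped. The share moved with the depth of the cells. After each cell was thinned to 2000 UMIs and shallower cells were left out, 28 of 4145 cells (0.676%, 0.449 to 0.975) met the rule in p53 AD/-, 197 of 7775 (2.53%, 2.20 to 2.91) in p53-/- and 54 of 7422 (0.728%, 0.547 to 0.948) in p53+/-. At equal depth the p53-/- share was still the highest, and those of p53 AD/- and p53+/- overlapped.

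Both conditions of the rule were met most often in p53-/- and least often in p53 AD/-. Of the cells that passed the exclusions, 153 of 4752 (3.22%) had an Nr4a1 UMI in p53 AD/-, 1270 of 6389 (19.9%) in p53-/- and 561 of 6140 (9.14%) in p53+/-, and 3.89%, 16.9% and 6.5% did so at equal depth. The sum of Bcl2l11 and Gadd45b reached 2 UMIs in 4.27%, 14.3% and 8.71% of them in the same order. Gadd45b alone differed less, with a UMI in 2.97%, 4.99% and 3.05% of cells. Nr4a1 was more frequent in cells with the Bcl2l11 and Gadd45b values (23.2%, 39.7% and 25.8%) than in cells with 0 UMIs of both (2.07%, 15.2% and 6.76%). Cells over the Cd74 limit with no CD3 UMI and not cycling, had an Nr4a1 UMI in 5.56%, 18.3% and 3.13% at equal depth (36, 82 and 32 cells, classed on the thinned counts). The Nr4a1 shares of cells passing the exclusions in p53 AD/- and p53-/- were no higher than these, whose intervals were wide (0.680 to 18.7 and 10.6 to 28.4). A single Nr4a1 UMI may be background. The Cd74 cells hold transcripts of their own, so this was not tested.

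**Figure D1:**
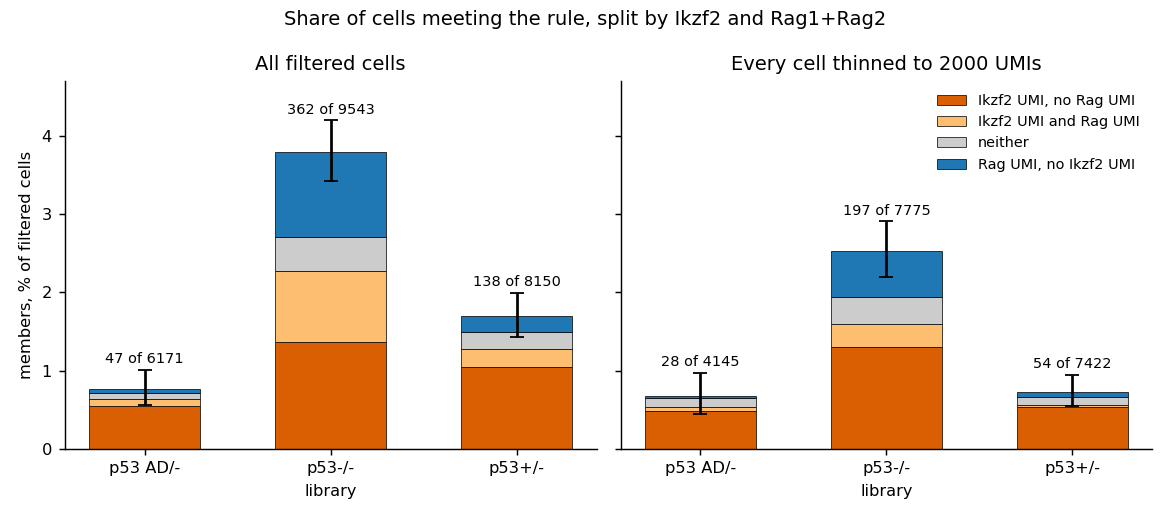
Members as percent of filtered cells in the p53 AD/-, p53-/- and p53+/- libraries, as deposited (left) and with every cell thinned to 2000 UMIs (right). Colours split members by UMIs of Ikzf2 and of Rag1 plus Rag2, and bars on the stacks are exact 95% intervals for the whole share (counting error only). The p53-/- stack, 3.79% and 2.53%, is the highest in both panels and holds the largest part with a Rag UMI.

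Cells that met the 2 signal values but failed an exclusion were counted as well. In p53 AD/- 79 cells met the signal values, of which 31.6% failed on the egress genes and 8.86% on the cycling genes. In p53-/- 785 cells met them, with 18.9% failing on egress genes and 38.7% on cycling genes. In p53+/- 263 met them, with 21.7% and 30.8% failing on the same genes. Cycling cells had a median of 11022.5, 10886.5 and 12418 UMIs in that order, several times those of other thymocytes. At 2000 UMIs per cell, 2, 19 and 5 cells met the signal values and failed an exclusion, against 32, 423 and 125 at full depth.

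Within the members, Nr4a1 stood at a median of 2 UMIs per cell in each library, and exactly 1 UMI was found in 38.3% of members of p53 AD/-, 43.6% of p53-/- and 42.8% of p53+/-. Bcl2l11 had a median of 3 UMIs in each. Gadd45b was not detected in 15 of 47, 226 of 362 and 78 of 138 members, so in p53-/- and p53+/- most entered through Bcl2l11 alone. Summed over members, Nr4a1 (chromosome 15, 101254269 to 101274795) stood at 678 CPM (UMIs per 1000000 UMIs of the same cells; Poisson interval 567 to 805) in p53 AD/-, 628 (589 to 669) in p53-/- and 582 (525 to 644) in p53+/-. Bcl2l11 (chromosome 2, 128126038 to 128162547) stood at 1041 (902 to 1195), 896 (850 to 945) and 923 (850 to 1000) CPM. Gadd45b (chromosome 10, 80930073 to 80932204) stood at 647 (539 to 771) CPM in p53 AD/-, 300 (273 to 328) in p53-/- and 317 (275 to 364) in p53+/-. Positions are those of GENCODE M21 on GRCm38. All 3 genes chose the members, so these levels describe the choice and are no comparison of genotypes. In other thymocytes Bcl2l11 stood at 86.1, 158 and 109 CPM and Gadd45b at 15.9, 14.0 and 10.7 CPM.

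Just inside the rule, with 1 Nr4a1 UMI and a Bcl2l11 and Gadd45b sum of 2, lay 5 members of p53 AD/-, 84 of p53-/- and 27 of p53+/-. Ikzf2 was found in 80%, 38.1% and 55.6% of them, and Rag1, the recombinase of thymocytes that still rearrange their receptor genes, in 60%, 75% and 51.9%. In the remaining 42, 278 and 111 members, Ikzf2 was found in 83.3%, 66.5% and 80.2% and Rag1 in 9.52%, 44.6% and 18.9%. Just outside lay 24, 289 and 122 cells with Nr4a1 and a sum of 1, in which Ikzf2 was found in 62.5%, 36.7% and 51.6%. A further 156, 549 and 397 cells had the sum of at least 2 but no Nr4a1 UMI, with Ikzf2 in 49.4%, 30.2% and 35.0% and Rag1 in 44.2%, 78.7% and 71.5%. Rag1 was thus found more often in members at the edge than in the other members, in each library. Cells over the Cd74 limit without any CD3 UMI (36, 59 and 30 cells, median 8690, 7759 and 8683.5 UMIs) are given beside these. They had Ikzf2 in 2.78%, 8.47% and 6.67% and Rag1 in 8.33%, 10.2% and 23.3%, at a higher depth than members. The same cells had Nr4a1 in 8.33%, 44.1% and 10%, Bcl2l11 in 22.2%, 23.7% and 20%, and Gadd45b in 30.6%, 35.6% and 26.7%. These cells hold transcripts of their own, so the shares do not measure free RNA alone.

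All 4 markers that the rule did not use were higher in members than in other thymocytes of the same library. Ikzf2 reached 1553 CPM in p53 AD/- members, 995 in p53-/- and 1322 in p53+/-, against 219, 219 and 213 CPM in other thymocytes. The log2 ratios were 2.82, 2.19 and 2.63. Rel reached 440, 192 and 351 CPM in members (log2 ratios 4.03, 2.43 and 3.47), Nfkb1 311, 214 and 345 CPM (2.97, 2.08 and 2.93) and Cd69 890, 330 and 647 CPM (3.42, 3.09 and 3.39). All 4 were lowest in p53-/- members. None of the 4 was detected in 2.13% of p53 AD/- members, 23.8% of p53-/- members and 10.1% of p53+/- members, and all 4 were detected in 25.5%, 11.6% and 23.9%. Since 23.8% of the p53-/- members had none of the 4, the cells are called by the rule, as members, and not as a class of strongly signalled cells.

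Over all genes, 30 of 2065 with enough UMIs (1.45%) were past 2-fold higher in members in every library and 6 (0.291%) were past 2-fold lower. These are descriptions of the cells the rule picked, with no test. Receptor-induced genes stood at the top. Tnfrsf9, which encodes the costimulatory receptor 4-1BB, had log2 ratios of 4.86, 4.25 and 4.46 in p53 AD/-, p53-/- and p53+/-. Nr4a3, a relative of Nr4a1 that takes part in thymocyte death, had 5.32, 3.37 and 4.85. Nfkbid, which encodes the nuclear inhibitor IkappaBNS, had 4.98, 3.07 and 3.75. Batf, an AP-1 family factor, had 3.85, 2.26 and 3.13, and Orai1, the pore of the store-operated calcium channel, had 3.18, 1.80 and 2.71. Cd5, whose level follows receptor signal strength, had 1.86, 1.21 and 1.56. Tnfrsf18, which encodes GITR of agonist-selected cells, had 2.44, 1.11 and 1.18. Of 11 receptor-induced genes outside the rule with enough UMIs, 8 were past 2-fold higher in every library, as were 3 of 7 NF-kappaB genes and 3 of 4 genes of agonist-selected lineages.

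Death and survival genes were mixed. Of 7 death and survival genes with enough UMIs, 1 was past 2-fold in every library, Nr4a3 above. Bcl2, the survival protein that Bim antagonises, had log2 ratios of 1.54, 0.61 and 1.33 in p53 AD/-, p53-/- and p53+/-. Bcl2a1b, an A1 survival gene whose copies share sequence so that its count is uncertain, had 3.88, 2.80 and 3.14, with 18, 64 and 30 UMIs. Heat shock and dissociation genes were higher in members in every library for 11 of 12, with 3 past 2-fold. Their medians were 0.96, 0.71 and 0.86 in the same order, against 0.05, 0.02 and 0.02 over all genes. The part of tissue handling, which is known to induce such genes, was not tested.

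The lowest genes were those of the double-positive stage, at which Cd4 and Cd8 are made together and Tcra is rearranged. Rag1 stood at 145, 732 and 327 CPM in members of p53 AD/-, p53-/- and p53+/-, against 1208, 1566 and 1567 CPM in other thymocytes, with log2 ratios of -3.06, -1.10 and -2.26. Tctex1d1 had ratios of -3.67, -1.16 and -2.26, with 4, 161 and 32 UMIs. Arpp21, expressed at this stage, had -2.81, -0.88 and -2.10. Cd8b1, the beta chain of CD8, had -2.61, -0.93 and -1.69. Of 17 recombination and double-positive genes with enough UMIs, 15 were lower in members of every library and 1 of them past 2-fold. Their medians were -1.59, -0.76 and -1.45, against 0.05, 0.02 and 0.02 over all genes. In Rag1, Tctex1d1, Arpp21 and Cd8b1 the gap to other thymocytes was smallest in the p53-/- library.

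**Figure D2:**
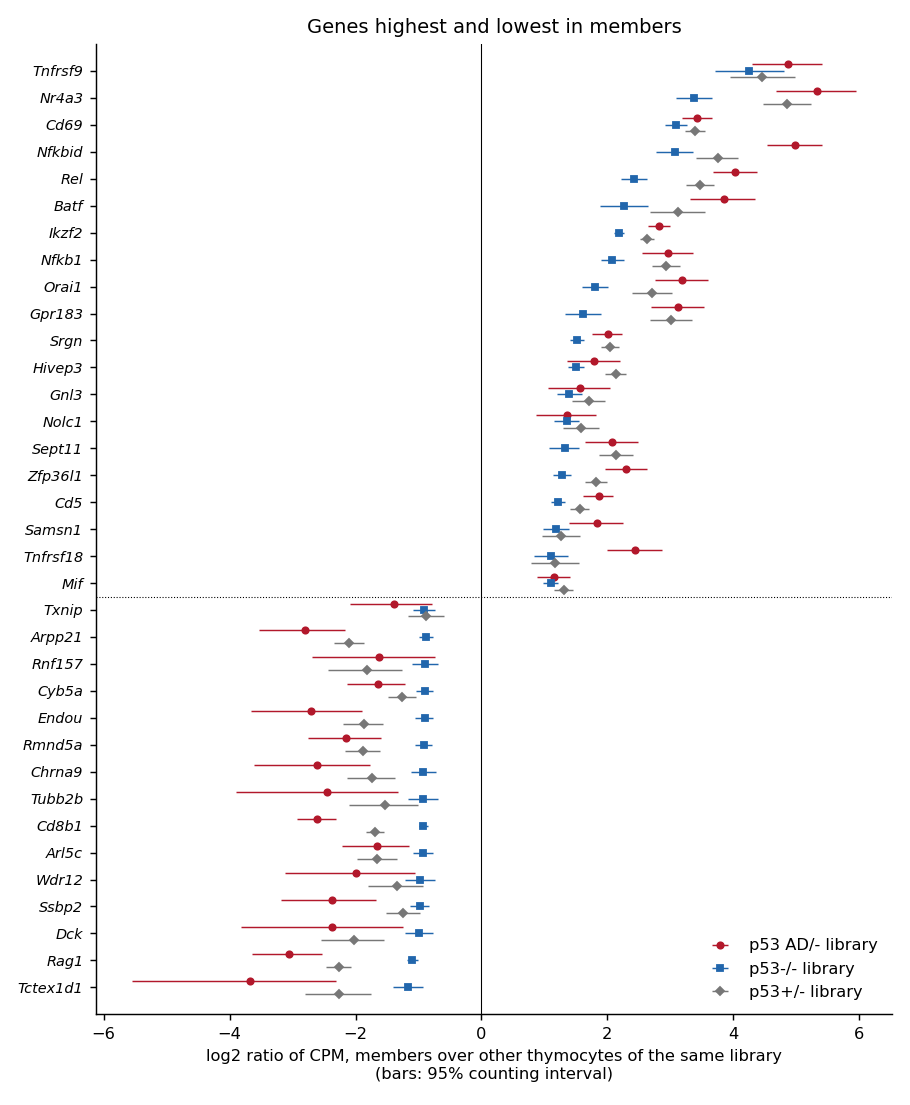
Log2 ratio of CPM in members over other thymocytes of the same library, for the 20 genes highest and the 15 lowest in members outside the rule (red circles p53 AD/-, blue squares p53-/-, grey diamonds p53+/-, bars 95% counting intervals). The p53-/- ratios lie nearest to 0 in most genes, as for Rag1 at -1.10 against -3.06 in p53 AD/- and -2.26 in p53+/-.

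The members were a mixture of stages, and the mixture differed between libraries. A UMI of Rag1 or Rag2 was found in 8 of 47 members of p53 AD/- (17.0%, interval 7.65 to 30.8), 191 of 362 of p53-/- (52.8%, 47.5 to 58.0) and 35 of 138 of p53+/- (25.4%, 18.3 to 33.5). Other thymocytes had one in 74.2%, 79.6% and 79.5%. The p53-/- interval lay above both others, which overlapped. At equal depth the shares were 10.7%, 35.0% and 13.0%. Ikzf2 was detected in 83.0%, 59.9% and 75.4% of members, and Cd69 in 61.7%, 37.0% and 62.3%.

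Split by both genes, cells with Ikzf2 and no Rag UMI made up 34 members of p53 AD/- (72.3%), 130 of p53-/- (35.9%) and 85 of p53+/- (61.6%). Cells with a Rag UMI and no Ikzf2 were 3 (6.38%), 104 (28.7%) and 16 (11.6%). Members with Cd4 and Cd8 UMIs together were 17.0%, 48.6% and 37.0%, with Cd4 alone 12.8%, 6.91% and 10.9%, with Cd8 alone 44.7%, 29.8% and 27.5%, and with neither 25.5%, 14.6% and 24.6%. In other thymocytes only 5.04%, 4.81% and 4.02% had neither. Cells with neither were thus more frequent among members in each library. At 2000 UMIs per cell, 53.6%, 27.4% and 37.0% of members had neither, against 13.4%, 12.9% and 9.96% of other thymocytes.

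Members without a Rag UMI had overlapping intervals of Ikzf2 and Nfkb1 across the libraries. There were 39, 171 and 103 such members in p53 AD/-, p53-/- and p53+/-, with 157239, 703714 and 472626 UMIs. In them Ikzf2 stood at 1660, 1546 and 1521 CPM and Nfkb1 at 324, 318 and 381 CPM. Cd69 stood at 935 CPM (790 to 1099), 519 (467 to 575) and 690 (617 to 769), and Rel at 515 (409 to 640), 303 (263 to 346) and 419 (363 to 482), both still lowest in p53-/-. In members with a Rag UMI, Cd69 stood at 696 CPM (450 to 1027) in the 8 such cells of p53 AD/-, 170 (143 to 200) in p53-/- and 531 (428 to 651) in p53+/-. Ikzf2 in them stood at 1085, 525 and 779 CPM. Both were lowest in the Rag-positive members of p53-/-.

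Nr4a1 was highest in the p53-/- library and lowest in p53 AD/- in each class of cells outside the members, signalled or not. In other thymocytes with a Rag UMI it stood at 5.22 CPM (3.80 to 7.01) in p53 AD/-, 67.2 (62.8 to 71.9) in p53-/- and 21.4 (19.1 to 23.9) in p53+/-. In other thymocytes with no Rag UMI it stood at 29.4, 148 and 64.6 CPM, in cycling cells at 6.98, 68.5 and 24.5 CPM, and in cells over the limit of egress genes at 42.1, 126 and 65.6 CPM. Even the cells with Cd74 over the limit, no CD3 UMI and no cycling, which are not T cells by these transcripts, had 7.0 (0.848 to 25.3), 121 (88.4 to 161) and 18.2 (4.95 to 46.5) CPM, from 2, 46 and 4 UMIs in 32, 49 and 24 cells. The p53-/- intervals lay above those of both other libraries in each of the 5 classes, while those of p53 AD/- and p53+/- overlapped in the Cd74 class. The order of Nr4a1 was thus shared by cells that the rule did not pick, and genotype and library cannot be told apart in it.

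Other immediate early genes did not all follow. Junb, an AP-1 subunit, stood at 177, 607 and 239 CPM in other thymocytes of p53 AD/-, p53-/- and p53+/-, and Fos at 28.8, 54.2 and 32.8 CPM, both highest in p53-/- like Nr4a1. Egr1, which the same receptor signals induce, stood at 64.8 (60.3 to 69.5), 39.5 (36.5 to 42.6) and 58.1 (54.8 to 61.6) CPM and was lowest in p53-/-. Cd69 was also lowest there, with 83.2, 38.8 and 61.8 CPM. Among members, Egr1 stood at 280, 79.8 and 212 CPM and Junb at 621, 1267 and 718 CPM. Egr1 and Cd69 thus had the opposite order to Nr4a1 and Junb among other thymocytes. In cycling cells Egr1 was highest in p53-/-, at 14.1, 25.2 and 15.1 CPM, and in cells over the limit of egress genes both Egr1 (65.6, 76.6 and 71.4 CPM) and Cd69 (112, 117 and 105 CPM) were highest there. In the Cd74 class Egr1 stood at 45.5, 564 and 182 CPM and Cd69 at 70.0, 394 and 154 CPM. The order of Egr1 and Cd69 was thus not the same in all classes.

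**Figure D3:**
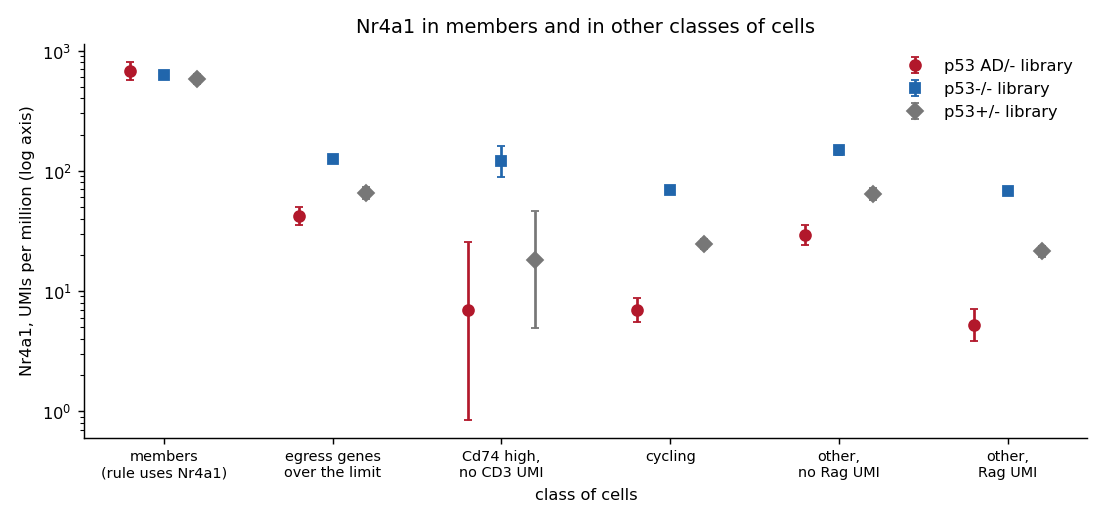
Nr4a1 in CPM (log axis) in members and in 5 other classes of cells, for the p53 AD/-, p53-/- and p53+/- libraries, with 95% Poisson intervals. Members sit between 582 and 678 CPM because the rule asks for Nr4a1, and in each other class p53-/- is the highest and p53 AD/- the lowest point.

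Comparing members between genotypes, p53 AD/- over p53-/- gave 108 of 4784 genes (2.26%) past 2-fold higher and 714 (14.9%) past 2-fold lower. For p53 AD/- over p53+/- these were 34 of 2660 (1.28%) and 157 (5.90%), and for p53-/- over p53+/- 166 of 5474 (3.03%) and 35 (0.639%). The 191 genes of p53 AD/- over p53+/- became 25 after thinning, 62 at a minimum of 100 UMIs and 662 at 20, the 822 over p53-/- became 274 after thinning and 385 at 100 UMIs, and the 201 of p53-/- over p53+/- became 118, 72 at 100 UMIs and 617 at 20. Genes with at least 50 UMIs over a pair entered, and counts under 3 UMIs were set to 3. Thinning and the other minimums also changed how many genes entered, so these counts are not shares of the same genes. The excess of lower values in p53 AD/- sits beside its 193168 member UMIs, against 1528296 in p53-/- and 646021 in p53+/-. The minimum is on the sum of a pair, so genes entered mostly through the deeper library and low p53 AD/- values passed more readily. Of 822 genes past 2-fold against p53-/-, 568 had an interval that excluded 0, and 167 of 191 did so against p53+/-. These genes were already picked by their ratio, so the interval counts are no test. The median over all genes was -0.14, 0.01 and 0.08 in the 3 pairs. Of the genes past 2-fold, 108 of 822, 14 of 191 and 26 of 201 were past 2-fold in the same direction in other thymocytes. When members with a Rag UMI were left out, 39 genes (1.40%) were higher and 234 (8.42%) lower of 2778 in p53 AD/- over p53-/-.

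Double-positive stage genes were lower in p53 AD/- than in p53-/- members. Of 23 recombination and double-positive genes, 21 were lower, 13 past 2-fold (median log2 ratio -1.20, against -0.14 over all genes). In members without a Rag UMI, 11 of 14 were lower and 2 past 2-fold (median -0.48). That is a smaller set of genes, and the split is on Rag genes of the same stage, which brings such genes nearer to 0 by construction. Rag1 had a log2 ratio of -2.34 (interval -2.93 to -1.80) and Arpp21 one of -2.32 (-3.06 to -1.67). Dntt, the terminal transferase that adds bases at receptor joints, had -1.59 (-2.16 to -1.07). In other thymocytes the ratios of these 3 genes were -0.38, -0.39 and 0.19. For p53-/- over p53+/- the list ran the other way, with 20 of 23 higher and 8 past 2-fold (median 0.66), and 12 of 16 higher and 0 past 2-fold without Rag-positive members (median 0.17). For p53 AD/- over p53+/- 12 of 15 were lower and 4 past 2-fold (median -0.54). The share of Rag-positive members, given above, had the same order as these genes.

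Receptor-induced genes split. Against p53-/-, 5 of 21 were past 2-fold higher in p53 AD/- members and 1 lower (median 0.31), against 2.26% and 14.9% of all genes and a median of -0.14. Tagap, a GTPase-activating protein of activated T cells, had 20 UMIs (104 CPM) in p53 AD/-, 39 (25.5 CPM) in p53-/- and 46 (71.2 CPM) in p53+/-, a log2 ratio of 2.02 (1.16 to 2.83) over p53-/- and 0.54 (-0.30 to 1.33) over p53+/-. Egr1 had 54, 122 and 137 UMIs and ratios of 1.81 (1.32 to 2.28) and 0.40 (-0.08 to 0.86) in the same order. Cd69 had 1.43 (1.17 to 1.68) and 0.46 (0.20 to 0.72). Junb went the other way at -1.03 (-1.31 to -0.76) and -0.21 (-0.51 to 0.08). Without Rag-positive members, 3 of 16 receptor-induced genes were past 2-fold higher and 3 lower over p53-/- (median 0.31), against 1.40% and 8.42% of all genes. The numbers past 2-fold were thus equal in both directions. Among these members Tagap had 1.58, Egr1 1.10, Cd69 0.85 and Junb -1.37 over p53-/-. The Tagap value lay inside its interval over all members, those of Egr1 and Cd69 lay below theirs, and that of Junb was farther from 0.

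**Figure D4:**
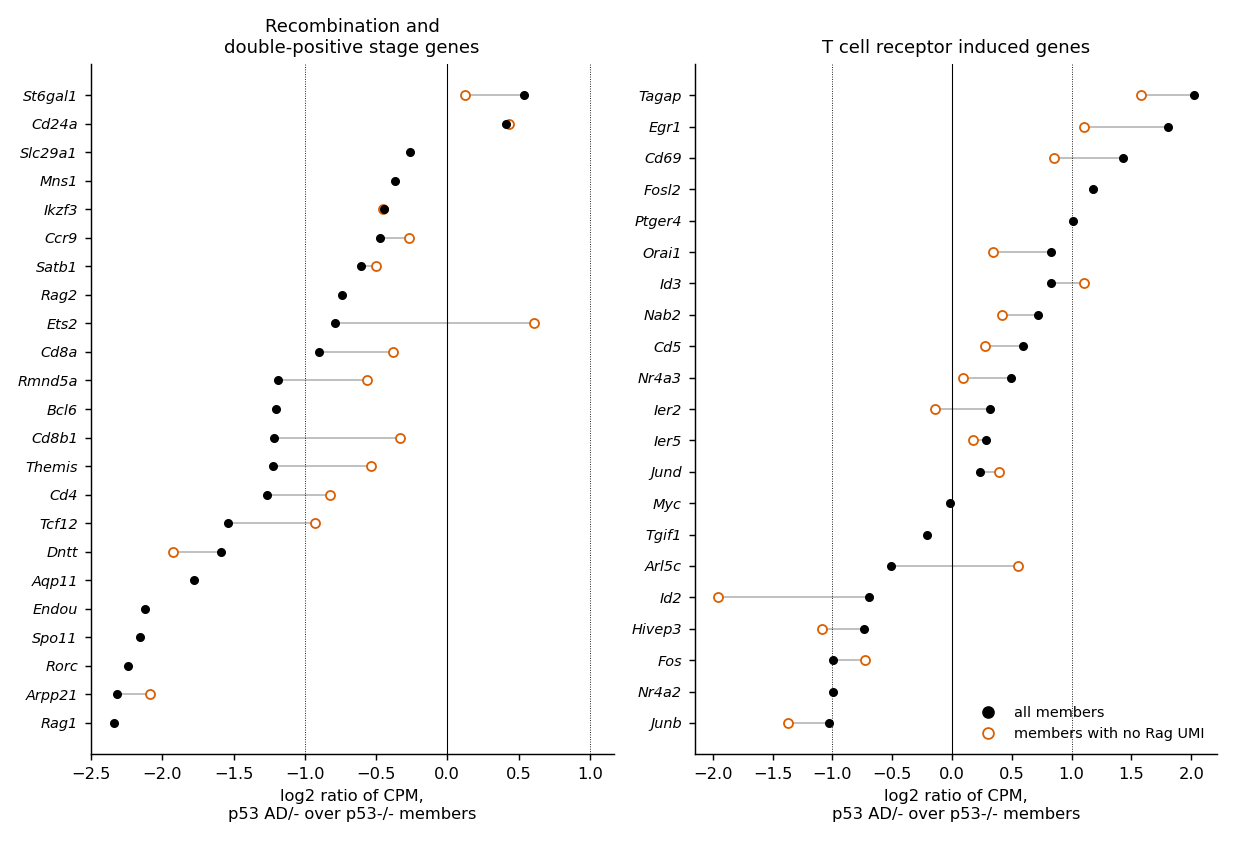
Log2 ratio of CPM in p53 AD/- over p53-/- members, for recombination and double-positive stage genes (left) and receptor-induced genes (right), with all members (filled black) and with members without a Rag UMI only (open orange, where enough UMIs were left). Dotted lines mark 2-fold. The split uses Rag genes, which belong to the same stage, so values such as Cd8b1 lie nearer to 0 by construction on the left. On the right, Tagap (1.58), Egr1 (1.10) and Junb (-1.37) stay past 2-fold. Of the 16 open points there, 3 lie past 2-fold higher and 3 past 2-fold lower.

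The costimulatory receptors Tnfrsf9 and Tnfrsf18 and the NF-kappaB inhibitors Nfkbid and Nfkbia were higher in p53 AD/- members than in both other libraries. Of 14 costimulatory and inhibitory receptors, 5 were past 2-fold higher and 1 lower than in p53-/- (median 0.43), where 2.26% of all genes were higher and 14.9% lower. Over p53+/-, 2 of 10 were past 2-fold higher and 0 lower (median 0.33). Without Rag-positive members, 1 of 10 was past 2-fold higher and 0 lower than in p53-/- (median 0.44), where 1.40% of all genes were higher and 8.42% lower. Over p53+/- this left 2 of 9 higher and 0 lower (median 0.30). Tnfrsf9 had 42, 81 and 56 UMIs and 217 (157 to 294), 53 (42.1 to 65.9) and 86.7 (65.5 to 113) CPM in p53 AD/-, p53-/- and p53+/-. Its log2 ratio was 2.04 (1.46 to 2.59) over p53-/- and 1.33 (0.71 to 1.93) over p53+/-, and 1.26 (0.65 to 1.85) and 1.16 (0.52 to 1.80) without Rag-positive members. Other thymocytes had ratios of 1.42 and 0.93. Tnfrsf18 had 1.52 (1.02 to 2.0) and 1.36 (0.79 to 1.92), with 0.19 and 0.09 in other thymocytes, and 2 of its 18 positive p53 AD/- members held 22 of the 49 UMIs. Nfkbid had 1.68 (1.26 to 2.09) and 1.06 (0.60 to 1.5), with -0.23 and -0.17 in other thymocytes. Nfkbia, which encodes the inhibitor IkappaB-alpha, had 1.21 (0.99 to 1.42) and 0.84 (0.61 to 1.07). Of 21 NF-kappaB genes, 4 were past 2-fold higher and 2 lower against p53-/- (median 0.03), and 1 of 12 was higher and 1 lower over p53+/- (median -0.13), so the list did not move as a whole. Without Rag-positive members, 1 of 14 NF-kappaB genes was past 2-fold higher and 0 lower against p53-/- (median -0.07). Tnfaip3, which encodes the inhibitor A20, had 30, 303 and 116 UMIs and ratios of -0.35 (-0.94 to 0.19) and -0.21 (-0.84 to 0.38).

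Several of the largest ratios of p53 AD/- belonged to single genes of other kinds. Batf had 40, 84 and 59 UMIs and log2 ratios of 1.91 (1.33 to 2.47) over p53-/- and 1.18 (0.56 to 1.78) over p53+/-, although 1 of the 14 p53 AD/- members with Batf held 11 of its UMIs. Gpr183, the oxysterol receptor that guides lymphocyte migration, had 1.71 (1.23 to 2.17) and 0.95 (0.45 to 1.45), against 0.21 and 0.85 in other thymocytes. Itm2a, a membrane protein of selected thymocytes, had 324, 959 and 488 UMIs and ratios of 1.42 (1.23 to 1.60) and 1.15 (0.94 to 1.36), against 0.55 and 0.76 in other thymocytes. Irf1, an interferon-response factor needed for CD8 T cells, had 40, 131 and 40 UMIs, with 1.27 (0.72 to 1.79) and 1.74 (1.07 to 2.41), and 0.30 (-0.41 to 0.97) and 1.09 (0.27 to 1.88) without Rag-positive members. After thinning to 2000 UMIs the Irf1 ratio over p53+/- was -0.27 (-1.94 to 1.20), from 6 and 14 UMIs. At full depth 1 p53 AD/- member held 13 of the 40 Irf1 UMIs. Hsph1, a heat shock chaperone, had 2.08 (1.39 to 2.75) and 1.52 (0.77 to 2.26), with 1.22 and 1.72 in other thymocytes. Eno1, a glycolytic enzyme, had 1.71 and 1.12, with 1.26 and 1.02 in other thymocytes. Lef1os1 had 1.84 and 1.43, and without stated strand its reads cannot be told from those of Lef1.

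Some ratios were about as large in other thymocytes. Gstp1, a glutathione transferase, had 2.27 (1.44 to 3.08) over p53-/- in members and 2.46 in other thymocytes. Among the lowest, Zfp36l2, an mRNA-decay factor, had 13, 547 and 360 UMIs and ratios of -2.41 (-3.33 to -1.62) over p53-/- and -3.05 (-3.97 to -2.26) over p53+/-, against -1.81 and -2.41 in other thymocytes. Tsix, which overlaps Xist on the opposite strand, had -3.43 and -2.77, against -2.94 and -2.21. Without stated strand, reads of Tsix cannot be told from those of Xist. These 3 differences were thus also present outside the members.

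The other genes named at the low end had 2 or 3 UMIs each in p53 AD/- members, and their intervals are wide. Ly6d, an early lymphoid surface protein, had 2, 564 and 107 UMIs in p53 AD/-, p53-/- and p53+/- members, with log2 ratios, from the 3-UMI floor, of -4.57 (-8.20 to -3.30) and -3.41 (-7.06 to -2.11). In other thymocytes they were -1.11 and -0.53. Ep300, a histone acetyltransferase, had 2, 188 and 68 UMIs, with -2.99 (-6.63 to -1.70) and -2.76 (-6.42 to -1.44), against -1.01 and -0.77 in other thymocytes. Snx18, Tab2, Hexim1 and Slc7a11 followed over p53-/-, at -3.31 (-6.95 to -2.02), -2.85 (-6.49 to -1.56), -2.93 (-5.22 to -1.36) and -2.75 (-5.05 to -1.18). Kdm6a was among the lowest over p53+/-, at -2.56 (-4.87 to -0.94).

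For p53-/- over p53+/-, the highest ratios came from few cells. Hes1, a Notch target, had 153 UMIs in 24 p53-/- members, 4 UMIs in p53+/- and 1 in p53 AD/-, a log2 ratio of 4.02 (2.63 to 5.91). The macrophage genes C1qa, Apoe, Lyz2, C1qb, C1qc, Tyrobp and Cd68 were also among the 10 highest, and 1 p53-/- member held 1183 of the 1266 UMIs of the macrophage list. That cell held 568 of 619 Apoe UMIs, 193 of 199 of C1qa and 136 of 148 of Lyz2. Among the lowest, Tnfrsf4, which encodes OX40, had 46 UMIs (30.1 CPM) in p53-/- and 79 (122 CPM) in p53+/-, a ratio of -2.02 (-2.58 to -1.48), with 23 of the 79 in 1 cell. Nab2, an EGR corepressor induced by EGR factors, had 72 and 81 UMIs and -1.41 (-1.89 to -0.94). Egr1 had -1.41 (-1.77 to -1.05), and -1.05 (-1.49 to -0.61) without Rag-positive members. Tagap had -1.48 (-2.13 to -0.83). Cpa3, a mast cell protease also found in early progenitors, had its 40 p53+/- UMIs in 2 cells.

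Markers of other cell types were looked for in the members. The granulocyte and erythroid lists had 0 UMIs in p53 AD/- members, with 71 and 15 in p53-/- and 13 and 16 in p53+/-. At least 5 UMIs of the double-negative list were found in 1, 19 and 4 members of p53 AD/-, p53-/- and p53+/-, and at least 5 of the gamma-delta list in 0, 15 and 4. The gamma-delta list stood at 5.18, 152 and 147 CPM in members, and at 88.7, 95.5 and 86.3 CPM in other thymocytes, with 6, 1 and 1 of its 7 genes at 0. The regulatory T list, without Foxp3 UMIs by the rule, reached 5 UMIs in 5, 22 and 11 members (10.6%, 6.08% and 7.97%), against 0.680%, 1.05% and 0.883% of other thymocytes. Much of it was Tnfrsf18 and Tnfrsf4, with 49 and 19 of its 77 UMIs in p53 AD/-, 135 and 46 of 295 in p53-/-, and 64 and 79 of 189 in p53+/-. Of its 8 genes, Ctla4, Lrrc32 and Capg had 0 UMIs in p53 AD/- members, and 1 p53+/- member held 36 of the 189 UMIs. Leaving out the 1, 27 and 9 members with at least 5 UMIs of a macrophage, granulocyte, dendritic, double-negative, gamma-delta or natural killer list gave shares of 0.745%, 3.51% and 1.58% of filtered cells.

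Trp53 itself had 26 UMIs in p53 AD/- members (135 CPM), 193 in p53-/- (126 CPM) and 105 in p53+/- (163 CPM). Transcript counts near one end of a gene may lie outside the altered part, so they do not check the genotype labels. Of 5 p53 target genes with enough UMIs, 4 were lower in members than in other thymocytes of every library and 0 past 2-fold lower. Their median log2 ratios were -0.80, -0.44 and -0.46 in p53 AD/-, p53-/- and p53+/-, against 0.05, 0.02 and 0.02 over all genes. Of 13 compared between p53 AD/- and p53-/- members, 1 was past 2-fold higher and 3 lower (median -0.18). Over all genes these were 2.26% and 14.9% with a median of -0.14, so the list was near the background in this pair. Of 6 compared between p53 AD/- and p53+/- members, 5 were lower, 2 of them past 2-fold, and 0 were past 2-fold higher. Their median was -0.36, against -0.12 in other thymocytes. Over all genes in that pair, 1.28% were past 2-fold higher and 5.90% lower, with a median of 0.01. Classical p53 targets were sparse in members: Bbc3, which encodes Puma, had 4, 22 and 9 UMIs in p53 AD/-, p53-/- and p53+/-, Pmaip1, which encodes Noxa, had 0, 5 and 2, and Cdkn1a, which encodes the cell cycle inhibitor p21, had 0, 13 and 0.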

How the data were processed

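Whole thymus cells of 3 libraries were profiled by droplet single-cell RNA sequencing. The authors deposited raw UMI counts per gene and barcode, and per the file headers Cell Ranger 4.0.0 made them. The build was GRCm38, per the submitters' processing notes. Annotation, chemistry and strand: not given in the sources used here. Cells with at least 500 genes and under 10% mitochondrial UMIs were kept. Doublets were not called; leaving out the 2% of barcodes with the most UMIs was tried in place of a caller. Members, defined in the report, were summed per library and given as CPM with exact Poisson intervals; shares have exact Clopper-Pearson intervals, and log2 ratios exact conditional binomial ones, all at 95%. With 1 library per genotype no test across samples was possible, and no p-value was computed. A gene entered a pair with at least 50 UMIs over both libraries. Counts of members against other thymocytes used genes with at least 30 UMIs in each library. There, member UMIs were added to those of other thymocytes scaled to the members. The 20 highest named genes needed at least 30 UMIs in members of each library, and the 15 lowest at least 30 expected. Counts under 3 UMIs were set to 3. Genes were named by rule: the genes of the rule and their markers, the 20 highest and 15 lowest in members over other thymocytes, the 10 highest and 10 lowest in each pair, and up to 4 per gene list with the most UMIs or past 2-fold. Some results are not reported here. Members and lists were chosen with earlier results of these data known. Gene IDs matched GENCODE M21 for 32235 of 32285 features (99.8%), used for positions. Alternatives covered the rule's thresholds, thinning to 2000 UMIs, the UMI minimum, library scaling by edgeR 4.0.16 TMM or median-of-ratios factors, and subsets of members. Python 3.11.15, numpy 2.4.6, pandas 2.3.3, scipy 1.17.1, matplotlib 3.10.9 and R 4.3.3 were used, and the ratio and interval steps were tested on simulated data.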

Additional observations from a re-analysis of the deposited data

Results flagged for a closer look

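Apoe, Hes1, Plac8 and Trdc were higher in members than in other thymocytes in 1 library and lower in another, with counting intervals on opposite sides of 0. None of these differences between libraries was tested. Apoe, a lipid carrier of macrophages, had a log2 ratio of members over other thymocytes of 1.89 in p53-/-, against -2.34 in p53 AD/- and -1.21 in p53+/-, and 1 p53-/- member held 568 of its 619 UMIs there. Hes1 had 1.25 in p53-/- and -1.43 in p53+/-, with its 153 p53-/- UMIs in 24 members. Plac8, a gene of myeloid and lymphoid progenitors, had -1.45 in p53 AD/-, from 0 UMIs set to the floor of 3, against 1.28 in p53-/- and 2.80 in p53+/-. Its 133 p53+/- UMIs lay in 3 members, 131 of them in 2. Trdc, the constant part of the delta receptor chain, had -1.77 in p53 AD/-, from 1 UMI, against 0.68 in p53-/- and 0.53 in p53+/-, with 117 UMIs in 45 p53-/- members and 43 in 14 p53+/- members.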

How the results depend on the processing

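No paired analysis was possible because each genotype had 1 library. The share of members stayed highest in p53-/- and lowest in p53 AD/- under each rule tried below, and the sizes moved. After thinning, though, the intervals of p53 AD/- and p53+/- overlapped. With at least 2 Nr4a1 UMIs it was 0.470%, 2.14% and 0.969% in p53 AD/-, p53-/- and p53+/-. With a Bcl2l11 and Gadd45b sum of at least 1 it was 1.15%, 6.82% and 3.19%, and with no Nr4a1 condition 3.29%, 9.55% and 6.56%. In p53-/- and p53+/- it was 2.41% and 1.13% with a sum of at least 3, 2.27% and 1.28% with Ikzf2 also required, and 1.79% and 1.26% with no Rag UMI allowed. After thinning it was 0.676% (0.449 to 0.975) in p53 AD/-, 2.53% in p53-/- and 0.728% (0.547 to 0.948) in p53+/-. Counts of genes past 2-fold moved most. Thinning, the UMI minimum and the subsets of members also changed how many genes entered, so these counts are not shares of the same genes. Without Rag-positive members, 2778 genes entered for p53 AD/- over p53-/-, against 4784 with all members. For p53 AD/- over p53-/- (822) there were 385 at 100 UMIs, 274 after thinning, 273 without Rag-positive members and 523 in Ikzf2-positive ones. For p53 AD/- over p53+/- (191) there were 662 at 20 UMIs, 62 at 100, 25 after thinning and 98 with at least 2 Nr4a1 UMIs. For p53-/- over p53+/- (201) there were 617 at 20 UMIs, 72 at 100, 118 after thinning and 71 without Rag-positive members. For members over other thymocytes (36) there were 111 against all other filtered cells, 11 against Cd69-positive ones, 22 after thinning and 9 at 100 UMIs. Of 678 values of named genes under 10 alternatives, 587 stayed within their interval, 89 moved and 2 reversed: Apoe for p53 AD/- over p53-/- was 0.35 without Rag-positive members, and Irf1 for p53 AD/- over p53+/- was -0.27 after thinning, and the cause was not tested. A further 42 gave no value. TMM and median-of-ratios scaling moved 0 of 72. The Rag, Ikzf2 and other-type alternatives were chosen after seeing the data. Depth in p53 AD/- members limits every ratio that rests on them.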

Other observations

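Metabolic gene groups differed between p53 AD/- members and those of the other libraries, with medians near those of other thymocytes for glycolysis. Over all genes the median log2 ratio in members was -0.14 for p53 AD/- over p53-/- and 0.01 for p53 AD/- over p53+/-. It was 0.08 for p53-/- over p53+/-. Glycolysis genes were higher in p53 AD/- members than in p53-/- members for 12 of 13 (median log2 ratio 0.60, against 0.58 in other thymocytes) and than in p53+/- members for 10 of 10 (0.74, against 0.76). Mitochondrially encoded genes were lower in p53 AD/- members for 12 of 13 in both comparisons, with medians of -0.51 over p53-/- and -0.55 over p53+/-, against -0.55 and -0.71 in other thymocytes. Glucocorticoid response genes were lower in p53 AD/- members for 13 of 14 over p53-/- (median -0.71) and for 10 of 11 over p53+/- (-0.91), against -0.47 and -0.61 in other thymocytes. Calcium and NFAT genes had 4 of 16 past 2-fold lower and 0 higher in p53 AD/- over p53-/- members (median -0.65), against -0.50 in other thymocytes and, over all genes, 14.9% past 2-fold lower and a median of -0.14. For p53-/- over p53+/- members the medians were -0.14 for glycolysis, -0.09 for mitochondrially encoded and -0.22 for glucocorticoid response genes, against 0.16, -0.14 and 0.10 in other thymocytes.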
